A study of Mus musculus with 6 samples.

Results

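The genes described here are the mouse Rab GTPases and the Tbc1d family of Rab regulators, taken as every protein-coding gene of the mm10 RefSeq annotation whose symbol begins with Rab and a digit or with Tbc1d. They number 99 of 21887 coding genes: 59 Rab GTPases, 30 Tbc1d genes and 10 genes of Rab-interacting proteins whose symbols the rule also takes (Rab11fip1 to Rab11fip5, Rab3gap1, Rab3gap2, Rab3il1, Rab3ip and Rab5if). A peak was given to whichever coding gene has an end closest to its midpoint, up to 100 kb away; such assignment does not show that the peak regulates the gene.

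The data are ATAC-seq, which marks open chromatin by transposase insertion, of microglia sorted from brains of 8-week-old C57BL/6J mice. The control genotype, Mir137+/+;Tmem119-CreERT2 (cWT), and the knockout, Mir137loxP/loxP;Tmem119-CreERT2 (cKO), share the recombinase allele, which tamoxifen activates in cells that express Tmem119, and both fall under the same 7-day tamoxifen course from 7 to 8 weeks of age. Each genotype has 3 libraries of about 50000 cells, and the labels do not tie the 4 mice they mention to libraries. The values available are 1 pooled list of specific peaks per genotype, 8615 for cKO and 3490 for cWT, so replicate spread and depth per library are unknown, intervals cover counting error over peaks only, and a longer list in 1 genotype cannot be told apart from a difference in depth. Of 10 microglial marker genes 8 had a cKO-specific peak and 2 a cWT-specific peak, while Csf1r and Cx3cr1 had neither; 5 of 6 vascular, 4 of 6 astrocyte, 3 of 6 neuronal, 3 of 6 oligodendrocyte-lineage, 2 of 6 border macrophage and 1 of 6 lymphocyte markers also had a cKO-specific peak, against 2, 2, 2, 2, 3 and 0 of 6 with a cWT-specific one. Of all coding genes 22.5% had a cKO-specific and 11.4% a cWT-specific peak, and the length of the marker genes was not taken into account. The part of other cell types in the results was not tested, and fewer cells of a type cannot be told apart from less open chromatin per cell.

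Rab GTPases are small membrane-bound switches that are active when bound to GTP and that each direct a step of vesicle budding, transport, tethering or fusion. Most Tbc1d proteins carry a TBC domain, which speeds GTP hydrolysis by Rabs and so turns them off. In microglia, as in other macrophages, this machinery serves phagosome maturation, delivery to lysosomes, receptor recycling and secretion.

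Rab and Tbc1d genes carried 79 cKO-specific and 25 cWT-specific peaks. The cKO share was 76.0% (exact 95% interval 66.6 to 83.8), and the share over all 11013 assigned peaks was 71.7% (70.9 to 72.6), which lies inside the interval of the family. Of the 99 genes, 45 bore a cKO-specific peak, where 22.5% of all coding genes did, and 18 a cWT-specific one, where 11.4% did. Peaks of both lists were found at 11 members, beside 5.95% of all coding genes. Another 34 had cKO-specific peaks alone, 7 had cWT-specific peaks alone, and 47 had none. Thus 52 of 99 had a peak of either list, where 27.9% of all coding genes did.

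Per megabase of the sequence nearer to them than to any other coding gene, the members held 9.64 cKO-specific and 3.05 cWT-specific peaks, and all coding genes held 4.65 and 1.83. The members are longer than coding genes in general, with a median span of 29.4 kb against 17.2 kb. When all coding genes were weighted to the span quintiles of the members, 27.5% had a cKO-specific and 14.7% a cWT-specific peak, beside 45.5% and 18.2% of the members. These shares were not compared by a test. The role groups below are set beside shares of all coding genes that were not weighted by span. By quintile the members stood above coding genes in cKO in all but the second, where 13.3% of 15 members and 17.0% of coding genes had a peak. In cWT they stood above only in the longest 2 quintiles. Whether genes open in microglia in general carry such peaks more often was not tested, since unlisted peaks were not used here.

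**Figure D1:**
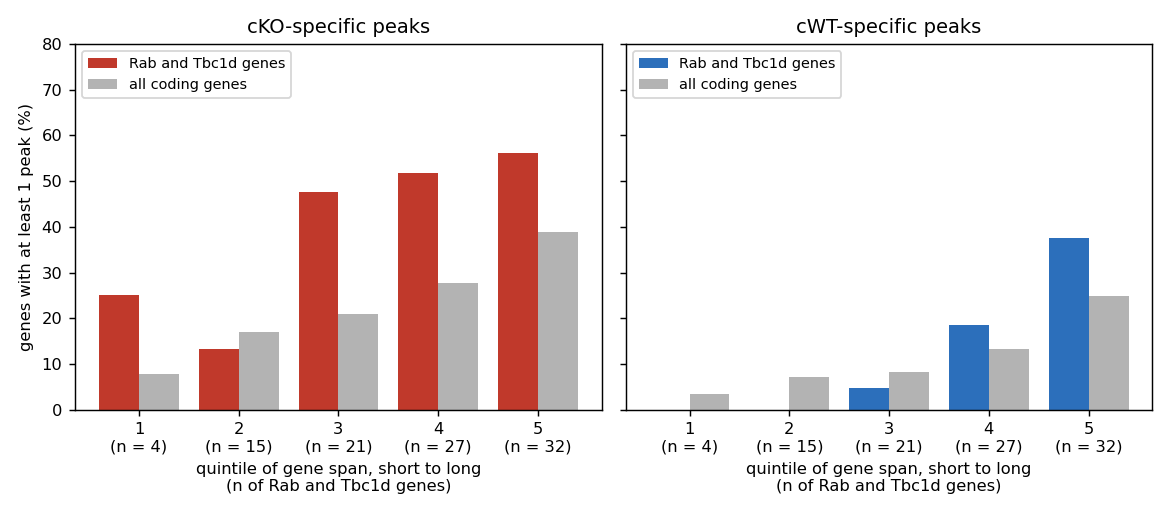
Percent of genes with at least 1 cKO-specific (left) or cWT-specific (right) peak, by quintile of gene span, for the Rab and Tbc1d genes (coloured bars, number of genes under each) and all coding genes (grey bars). In the longest quintile 56.3% of 32 members had a cKO-specific peak, beside 38.9% of coding genes, and 37.5% had a cWT-specific peak, beside 24.9%.

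**Figure D2:**
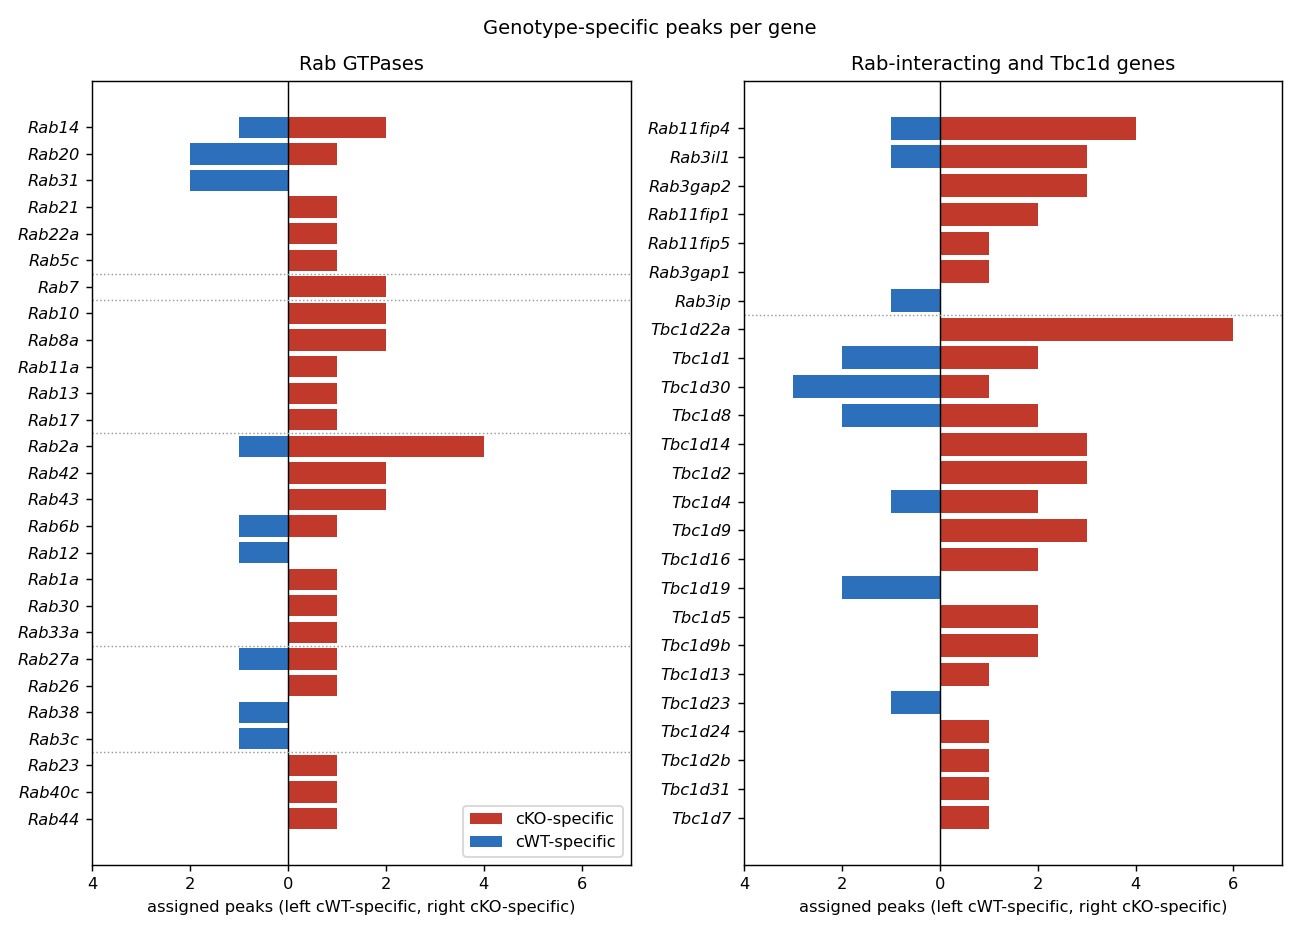
Number of assigned cKO-specific (red, to the right) and cWT-specific (blue, to the left) peaks for the 52 members with a peak, ordered by role; dotted lines separate role groups. Tbc1d22a had the most assigned peaks (6 cKO-specific), and Tbc1d30 the most assigned cWT-specific ones (3).

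The best-scored member peak at a gene end was that of Tbc1d13, which stood second among all member peaks to the one near Rab11fip4. Within 1000 bp of an end of the gene, here called a gene end, lay 7 of 79 cKO-specific member peaks (8.86%, exact 95% interval 3.64 to 17.4), where 15.0% of all assigned cKO-specific peaks did, and 2 of 25 cWT-specific ones (8.00%, 0.984 to 26.0), where 17.8% did. These were the cKO-specific peaks of Tbc1d13, Tbc1d24, Rab20, Rab33a, Rab42, Rab44 and Tbc1d7 and the cWT-specific peaks of Rab27a and Rab38. The share of all coding genes' peaks lay inside the interval of the members in both lists. Over both lists together the members' share was 8.65%. It was 19.6% with assignment limited to 10 kb, which drops only peaks farther from a gene end. Among peaks with a deposited p-value up to 0.5 it was 28.6%, and 50.0% of the 4 named primary. The shares of all assigned peaks in these subsets are not given here. A RefSeq promoter table (build GRCm38.p6) lists start sites, 104 promoters in all, for 79 members. Within 1000 bp of a listed start lay 8 of the 62 cKO-specific peaks of those genes (12.9%, 5.74 to 23.9), beside 13.8% for all genes in the table, and 1 of 17 cWT-specific peaks (5.88%, 0.149 to 28.7), beside 17.3%. Rab13, Rab43 and Tbc1d22a had a peak at a listed start that lies inside the gene's span, 308.5 bp, 444 bp and 45 bp from the midpoint.

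The start windows of 7 members, from 250 bases before to 50 after the start, are shown because they are all those in the table that a specific peak overlaps. They read in the direction of the gene, and capitals mark matches to the E-box CACGTG or, on either strand, to the ETS core GGAAGT.
Tbc1d13: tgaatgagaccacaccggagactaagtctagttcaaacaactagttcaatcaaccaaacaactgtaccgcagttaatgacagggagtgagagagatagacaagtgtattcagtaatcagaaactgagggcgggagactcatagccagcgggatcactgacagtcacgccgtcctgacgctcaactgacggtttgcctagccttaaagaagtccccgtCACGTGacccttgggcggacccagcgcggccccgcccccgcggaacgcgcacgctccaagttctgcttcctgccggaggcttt
Tbc1d24: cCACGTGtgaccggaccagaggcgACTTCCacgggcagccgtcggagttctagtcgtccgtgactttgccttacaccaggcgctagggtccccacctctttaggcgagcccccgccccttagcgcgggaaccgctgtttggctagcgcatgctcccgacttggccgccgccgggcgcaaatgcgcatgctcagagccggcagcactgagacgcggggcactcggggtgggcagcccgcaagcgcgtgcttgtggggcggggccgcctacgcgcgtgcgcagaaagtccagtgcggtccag
Rab20: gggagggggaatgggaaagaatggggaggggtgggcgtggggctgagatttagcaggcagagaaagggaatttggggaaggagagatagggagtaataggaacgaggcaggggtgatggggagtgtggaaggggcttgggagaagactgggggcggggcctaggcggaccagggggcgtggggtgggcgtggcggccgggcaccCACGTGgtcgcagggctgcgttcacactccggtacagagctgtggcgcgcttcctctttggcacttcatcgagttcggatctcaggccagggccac
Rab27a: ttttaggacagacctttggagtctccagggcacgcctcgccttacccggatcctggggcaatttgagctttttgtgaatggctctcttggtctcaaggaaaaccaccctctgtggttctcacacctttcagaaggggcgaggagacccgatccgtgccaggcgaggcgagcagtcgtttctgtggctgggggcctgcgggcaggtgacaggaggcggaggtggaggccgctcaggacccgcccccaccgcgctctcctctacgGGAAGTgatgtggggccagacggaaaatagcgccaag
Tbc1d22a: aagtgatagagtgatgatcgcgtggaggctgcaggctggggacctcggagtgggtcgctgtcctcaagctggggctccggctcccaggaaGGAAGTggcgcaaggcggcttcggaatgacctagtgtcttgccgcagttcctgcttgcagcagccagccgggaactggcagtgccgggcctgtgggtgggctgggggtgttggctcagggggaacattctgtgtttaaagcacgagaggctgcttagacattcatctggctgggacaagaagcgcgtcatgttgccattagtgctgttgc
Rab13: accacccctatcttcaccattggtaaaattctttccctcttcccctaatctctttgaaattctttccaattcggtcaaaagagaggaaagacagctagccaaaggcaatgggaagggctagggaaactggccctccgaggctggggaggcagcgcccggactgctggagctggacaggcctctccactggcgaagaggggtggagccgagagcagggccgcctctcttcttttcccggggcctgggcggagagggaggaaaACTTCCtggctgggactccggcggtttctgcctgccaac
Rab42: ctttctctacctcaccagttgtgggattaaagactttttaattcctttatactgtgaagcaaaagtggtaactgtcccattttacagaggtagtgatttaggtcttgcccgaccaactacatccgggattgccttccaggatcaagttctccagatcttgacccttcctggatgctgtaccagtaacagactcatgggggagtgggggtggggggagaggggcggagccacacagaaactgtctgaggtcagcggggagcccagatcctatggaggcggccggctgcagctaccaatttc
The windows are those of Tbc1d13 (chr2:30133496-30133795, + strand), Tbc1d24 (chr17:24205513-24205812, - strand), Rab20 (chr8:11478591-11478890, - strand), Rab27a (chr9:73044560-73044859, + strand), Rab42 (chr4:132303307-132303606, - strand) and internal starts of Tbc1d22a (chr15:86277425-86277724, + strand) and Rab13 (chr3:90220534-90220833, + strand). The peaks covered all 300 bases of the Tbc1d13, Tbc1d24 and Tbc1d22a windows, 201 of Rab20 and of Rab42, 200 of Rab13 and 192 of Rab27a.

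Counted from the start, with no base numbered 0, the E-box lay at -33 in Tbc1d13, -46 in Rab20 and -249 in Tbc1d24, and the ETS core at -226 in Tbc1d24, 14 in Rab27a, 12 in Rab13 and -160 in Tbc1d22a. The Rab42 window holds neither. Both strands were searched in all 104 member promoters and in all 21263 promoters of coding genes in the table, and the 3 motifs share no letters in the windows shown. An E-box was found in 16 member promoters (15.4%), belonging to 15 genes, beside 7.84% of all, and an ETS core in 29 (27.9%) beside 24.8%. The AP-1 motif TGANTCA was found in 4 (3.85%) beside 6.99%. Member promoters had a median GC content of 61.8%, against 56.3% for all. Among promoters at or above 61.8%, an E-box was found in 11 of 52 member promoters (21.2%) and in 11.3% of all 6998. There an ETS core was found in 13 member promoters (25.0%) beside 21.4%. The AP-1 motif was found in 0 of them beside 3.23%. A match describes the sequence and is not evidence of binding.

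The Tbc1d13 peak was the 5th highest-scored of the whole cKO list. Tbc1d13 encodes a TBC protein that acts on Rab35, which recycles cargo to the plasma membrane. The peak (chromosome 2, 30133179 to 30134044) is 866 bp wide, with an authors' signal of 34.0, a p-value of 0.0310 and an adjusted p-value of 0.447 in the deposited list, and the next coding gene, Zer1, ends 7324.5 bp away. Tbc1d24, a gene of synaptic vesicle traffic, had an 872 bp peak (chromosome 17, 24205239 to 24206110; signal 26.7, p-value 0.175) whose midpoint lies 112.5 bp from its start and inside the neighbouring gene Ntn3. Both were named primary in the list. Tbc1d7, a subunit of the TSC complex that restrains mTORC1, had a weak peak 874.5 bp from its start (signal 8.47, p-value 0.939). No peak of either list has an adjusted p-value under 0.05, the lowest in each being 0.194 and 0.231, and what the deposited p-values test is not stated. The score is a fixed transform of the deposited p-value, so a rank by score and a p-value are not separate measures of a peak.

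Rab20 had a wide cKO-specific peak at its start and a wide cWT-specific peak adjoining it inside the gene. Rab20 works on maturing phagosomes of macrophages. The cKO-specific peak (chromosome 8, 11477755 to 11478791) is 1037 bp wide, has signal 25.9 and p-value 0.300, and its midpoint lies 367 bp from the start. The cWT-specific peak beside it (11476788 to 11477769) is 982 bp wide, has signal 27.1 and p-value 0.929, and shares 15 bp with it; its midpoint lies 1361.5 bp from the start. Another cWT-specific peak lay 7176.5 bp inside the gene. The cKO-specific peak thus covered the start, and those of cWT lay farther into the gene. An end of the long noncoding RNA gene E230013L22Rik lies 344 bp from the midpoint of the cKO-specific peak.

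Among early endosome and phagosome Rabs, 6 of 8 had a peak, beside 27.9% of all coding genes, 6 cKO-specific and 5 cWT-specific in all. This is the group with the lowest cKO share after the secretory Rabs, 54.5% with an exact interval of 23.4 to 83.3 that includes 71.7%. Rab14, which moves cargo between Golgi, early endosome and phagosome, had 2 cKO-specific peaks and 1 cWT-specific peak, those inside the gene lying 5467 bp apart. Rab31, which acts between the trans-Golgi and endosomes, had 2 cWT-specific peaks and 0 cKO-specific ones, both deep in the gene (47315.5 and 54633 bp from its end) and with low signals of 9.90 and 7.98. Rab21, Rab22a and Rab5c had 1 cKO-specific peak each. Rab5a and Rab5b, the other Rab5 genes of early endosome fusion, had none.

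Of the late endosome and lysosome Rabs 1 of 7 had a peak, beside 27.9% of all coding genes, a difference that was not tested. Rab7, the GTPase that drives fusion with lysosomes, had 2 cKO-specific peaks beyond one end of the gene. The stronger (chromosome 6, 88053485 to 88054333) is 849 bp wide, has signal 32.0 and p-value 0.268, and lies 8639 bp from Rab7 and 65 bp from an end of the noncoding gene Gm38855. The other lay 15553.5 bp away with signal 17.1. Rab7b, Rab9, Rab9b, Rab24, Rab34 and Rab36 had none.

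Recycling Rabs had cKO-specific peaks alone, 7 peaks at 5 of 12 genes, beside 22.5% of all coding genes with such a peak. Rab10, which serves recycling and, in macrophages, delivery of Toll-like receptor 4 to the surface, and Rab8a, of polarised exocytosis, had 2 each; Rab11a, the main GTPase of the recycling endosome, Rab13 and Rab17 had 1 each. The 7 peaks give a cKO share of 100% with an exact interval of 59.0 to 100, which includes 71.7%. The Rab13 peak overlapped 200 bases of a start window (chromosome 3, 90220218 to 90220733; signal 22.5, p-value 0.623). Rab4a, Rab4b, Rab8b, Rab11b, Rab15, Rab25 and Rab35 had none.

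Among ER and Golgi Rabs 8 of 16 genes had a peak, beside 27.9% of all coding genes, 12 cKO-specific and 3 cWT-specific. Rab2a, of ER to Golgi traffic and of fusion with lysosomes, had 4 and 1. Its cWT-specific peak (chromosome 4, 8545179 to 8545490; signal 8.93) lay 298 bp from a cKO-specific peak (8545789 to 8545964; signal 16.5). Its farthest peak, 40429 bp away, had the highest signal of all member peaks, 45.2, but a p-value of 0.962. Signal and p-value thus order these peaks differently. That peak lies 42271 bp from Chd7, the next coding gene, and 674 bp from an end of the noncoding gene Gm8273. Rab42 and Rab43 had 2 cKO-specific peaks each, Rab1a, Rab30 and Rab33a 1 each, Rab6b 1 of each list, and Rab12 1 cWT-specific peak. The Rab42 peak at its start (chromosome 4, 132303149 to 132303507) had signal 13.2 and p-value 0.747. The Rab33a peak, 426 bp from one end of that gene, lies 5196 bp from its listed start and 526 bp from an end of Aifm1.

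Secretory Rabs and those of lysosome-related organelles had 2 cKO-specific and 3 cWT-specific peaks at 4 of 11 genes, beside 27.9% of all coding genes, a cKO share of 40.0% (exact interval 5.27 to 85.3). Rab27a, which docks lysosome-related organelles and exosome-bearing bodies at the plasma membrane, had a cWT-specific peak at its start (chromosome 9, 73044668 to 73045124; signal 27.7, p-value 0.264), the 61st of 3490 by score, and a weak cKO-specific peak 26370.5 bp inside the gene (signal 11.0). Rab38, known for melanosome formation, had a cWT-specific peak 97.5 bp from a gene end (signal 17.1, p-value 0.803), and the neuronal Rab3c had 1 cWT-specific peak. Rab26 had 1 cKO-specific peak. Among the remaining Rabs, Rab23, an inhibitor of hedgehog signalling, Rab40c and Rab44 had 1 cKO-specific peak each, the last 31 bp from a gene end (signal 11.1, p-value 0.894).

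Of 19 sets of members whose symbols share a number and differ in the letter after it, 13 had peaks at a single gene, 4 at none and 2 at both. The first include Rab1a and not Rab1b, Rab2a and not Rab2b, Rab8a and not Rab8b, Rab11a and not Rab11b, and Rab27a and not Rab27b. The 2 sets with peaks at both were Tbc1d2 with Tbc1d2b and Tbc1d9 with Tbc1d9b. With 52 of 99 members bearing a peak, no rate was worked out for how often sets would split by number alone.

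Rab-interacting genes carried the highest-scored peak of the family, which is also the first of all 8615 in the cKO list. It lies beyond one end of Rab11fip4, the gene of an effector that ties Rab11 vesicles to their motors and to Arf6. The peak (chromosome 11, 79704021 to 79705007) is 987 bp wide, with signal 38.2, p-value 0.00574 and adjusted p-value 0.194, and its midpoint is 6498 bp from the gene. A cWT-specific peak named primary (79703524 to 79704199; signal 32.1, p-value 0.159), the 30th of 3490 by score, overlaps it by 179 bp, which is 26.5% of the cWT-specific and 18.1% of the cKO-specific peak. High-ranked peaks of both lists thus meet at this site.

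The Rab11fip4 site is also near noncoding genes. An end of the long noncoding RNA gene Gm11205 lies 56 bp from the midpoint of the cKO-specific peak. The tRNA gene n-TTcgt3 has an end within 1000 bp of the midpoints of the cKO-specific and the cWT-specific peak. The hairpins of the microRNA genes Mir193a and Mir365-2 lie 7455 and 21886 bp from the cKO-specific midpoint, on the far side from Rab11fip4. Inside Rab11fip4 there were 3 further cKO-specific peaks, with signals of 13.6, 33.4 and 18.2, of which the strongest lay 391 bp from an end of the antisense gene Rab11fip4os2. When all annotated genes compete for a peak, such sites are given to the noncoding gene.

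**Figure D3:**
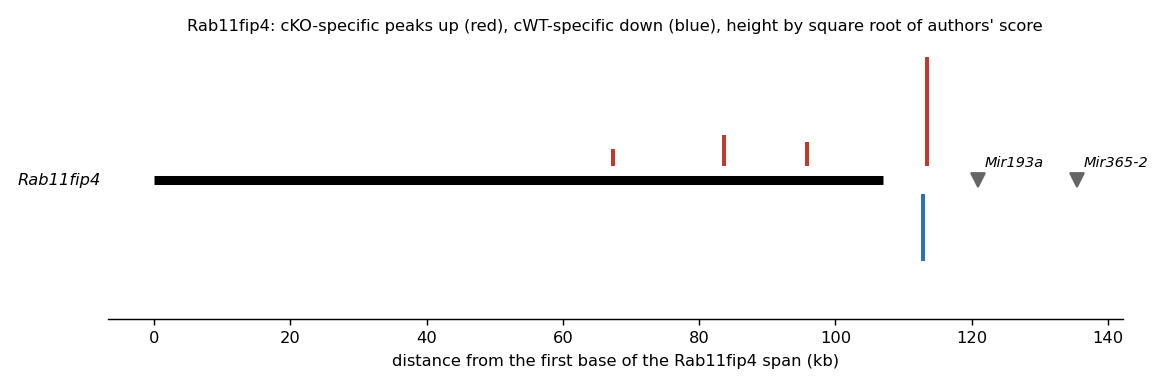
Peaks assigned to Rab11fip4, plotted by distance in kb from the first base of its span (black bar), with cKO-specific peaks above and cWT-specific peaks below, line height by the square root of the authors' score, and triangles at 2 microRNA hairpins. The highest cKO-specific peak and the only cWT-specific one overlap by 179 bp, with midpoints 6498 and 5845.5 bp beyond the end of the gene.

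Rab3il1, whose product activates Rab3 and Rab8, had 3 cKO-specific and 1 cWT-specific peaks, all inside the gene. The cWT-specific peak (chromosome 19, 10025553 to 10025768; signal 12.6) and a cKO-specific one (10025774 to 10026116; signal 15.1) are separated by 5 bp. Rab3gap2 had 3 cKO-specific peaks and Rab3gap1 had 1; their products together form a GTPase-activating complex for Rab3. Rab11fip1 had 2 and Rab11fip5 had 1 cKO-specific peak, the latter 6022.5 bp from the gene (signal 25.7, p-value 0.390), and Rab3ip, which encodes the Rab8 activator Rabin8, had 1 cWT-specific peak. Rab11fip2, Rab11fip3 and Rab5if had none. Over the 11 members with peaks of both lists, the nearest pairs were those of Rab3il1, Rab2a, Rab11fip4 and Rab20, and 2 pairs overlapped.

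**Figure D4:**
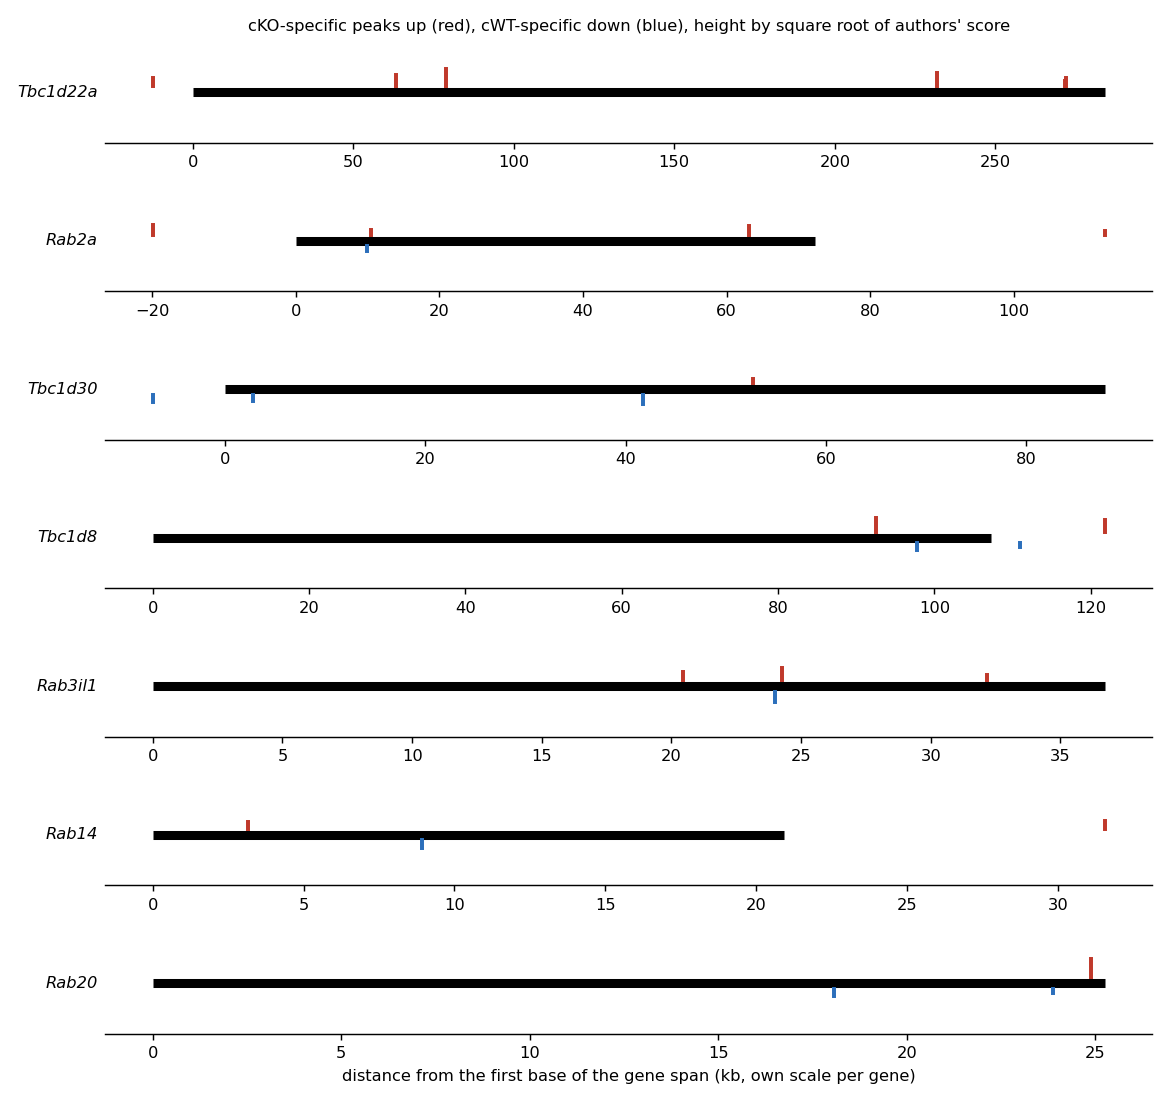
Assigned peaks of 7 members by distance in kb from the first base of the gene span (black bar, scale set per gene), cKO-specific above and cWT-specific below, line height by the square root of the authors' score. Neighbouring peaks of both genotypes are seen at Rab3il1 (5 bp apart), Rab2a (298 bp) and Rab20 (15 bp shared), while the 6 peaks of Tbc1d22a are all cKO-specific.

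Tbc1d genes together bore 33 cKO-specific and 11 cWT-specific peaks, a cKO share of 75.0% (exact interval 59.7 to 86.8). Of the 30 genes 18 had a peak, beside 27.9% of all coding genes, a share not weighted by span. The median span of the 30 was 60.5 kb, against 17.2 kb for all coding genes. Tbc1d22a, which encodes a Golgi-associated TBC protein, had 6 cKO-specific peaks and 0 cWT-specific ones. They ran from 12391.5 bp before its span to within 11999 bp of its other end, with signals of 14.6 to 37.2, and the lowest p-value was 0.343 (chromosome 15, 86293230 to 86293609). A pair of them adjoins (86485948 to 86486284 and 86486285 to 86486723, both with signal 26.7) and may be 1 region. A further cKO-specific peak inside the gene, 123692 bp from its nearest end, falls outside the 100 kb limit.

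Tbc1d14, a regulator of Rab11-positive membranes in autophagy, and Tbc1d2, which acts on Rab7, had 3 cKO-specific peaks each, as did Tbc1d9. Tbc1d5, which acts on Rab7 with the retromer, had 2 that adjoin (both with signal 28.3), and Tbc1d16, a regulator of Rab4, and Tbc1d9b, a regulator of Rab11a, had 2 each. Tbc1d31 had 1 cKO-specific peak, with signal 14.5 and p-value 0.424, and Tbc1d2b had 1. These 8 genes had no cWT-specific peak.

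Other Tbc1d genes had peaks of both lists or of cWT alone. Tbc1d30, which acts on Rab8 at the primary cilium, had 1 cKO-specific and 3 cWT-specific peaks, the latter with signals of 12.4, 13.5 and 19.2. Tbc1d1 and Tbc1d8 had 2 of each assigned to them, and Tbc1d4 2 and 1. A further 3 peaks inside the Tbc1d1 span went to Gm46913 and 2 inside Tbc1d8 to Rpl31, whose ends lie nearer. Tbc1d1 and Tbc1d4 encode related regulators of Rab10 and glucose transporter traffic. Tbc1d1 had its strongest peak 59276.5 bp beyond the gene (chromosome 5, 64410430 to 64411095; signal 26.1, p-value 0.315). Tbc1d19 had 2 cWT-specific peaks and Tbc1d23, whose product bridges endosome-derived vesicles to Golgi golgins, had 1. The 12 Tbc1d genes with no peak include all 3 Tbc1d10 genes, Tbc1d15, which acts on Rab7, and Tbc1d20, which acts on Rab1 and Rab18.

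No single member passed the test of its balance between the lists. Of the 99, 3 had the 5 peaks needed for the exact binomial test of the cKO share against 71.7%: Tbc1d22a with 6 and 0 (exact p = 0.194), Rab11fip4 with 4 and 1 (exact p = 1) and Rab2a with 4 and 1 (exact p = 1). Their exact 95% intervals for the cKO share were 54.1 to 100%, 28.4 to 99.5% and 28.4 to 99.5%. After Benjamini-Hochberg adjustment over all 271 genes tested, 0 passed (0.00%), and 6 had an unadjusted p under 0.05, none of them a member. Because cKO-specific peaks are the majority, 6 of 6 is not enough to pass. Counts of 5 or 6 peaks leave little room to pass in the other direction either, after adjustment over 271 genes. The test therefore cannot decide whether these members are balanced.

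Width, signal and position of the member peaks are given beside those of all assigned peaks, without a test. Median width was 341 bp for cKO-specific member peaks and 314 bp for all assigned ones, and 382 and 321.5 bp in cWT. Median signal was 17.6 against 16.6 in cKO and 13.6 against 13.7 in cWT. Deposited p-values up to 0.5 were held by 12 of 79 cKO-specific member peaks (15.2%, beside 12.4%) and 2 of 25 cWT-specific ones (8.00%, beside 6.29%), which were those of Rab27a and Rab11fip4. Member peaks lay inside the gene they were given to in 55 of 79 and 19 of 25 cases. Another 8 peaks inside the spans of 5 members (Tbc1d1, Tbc1d8, Tbc1d22a, Rab6a and Rab37) were not counted for them. Another coding gene had a nearer end, or the peak lay beyond the limit. Inside any coding gene lay 70.9% and 76.0% of them, and 61.0% and 62.6% of all assigned peaks. The peak of each list farthest from its member was 79008.5 bp away in cKO (Tbc1d22a) and 79815 bp in cWT (Tbc1d4), and the nearest peak beyond the limit was a cKO-specific one 107736 bp from Tbc1d5.

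**Figure D5:**
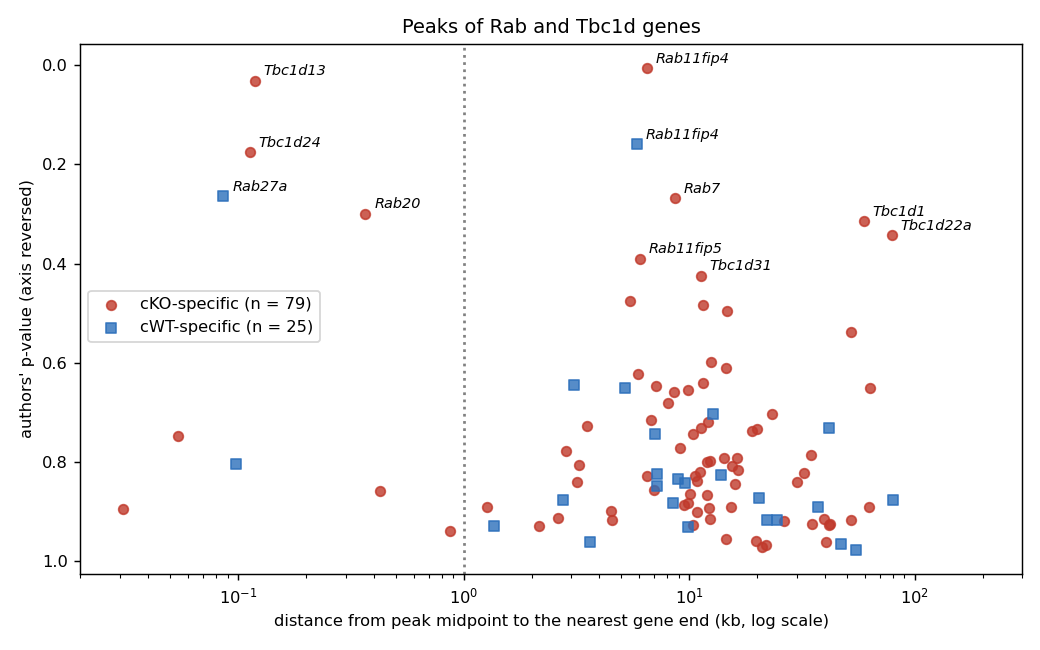
Value read as the authors' p-value (reversed axis) against distance from the peak's midpoint to the nearest end of its gene (kb, log scale). The 79 cKO-specific member peaks are red circles and the 25 cWT-specific ones blue squares. The dotted line marks 1000 bp and peaks with the lowest p-values are named. The Rab11fip4, Tbc1d13 and Tbc1d24 peaks lead, and most peaks of both lists lie between 1000 bp and 100 kb with p-values above 0.5.

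Genes of the same machinery outside the naming rule also carried peaks of both lists. Of 82 genes for Rab delivery, activation, inactivation and effectors, 29 had a cKO-specific peak (35.4%, beside 22.5% of all coding genes) and 18 a cWT-specific one (22.0%, beside 11.4%), with 63 and 25 peaks. Effector genes had one at 16 and 6 of 39, activator genes at 9 and 8 of 27, TBC-domain genes with other symbols at 3 and 3 of 9, and delivery genes at 1 and 1 of 7. Lrrk1, a kinase of Rab7, had 5 cKO-specific and 1 cWT-specific peaks, Dennd4a, an activator of Rab10, 5 and 0, and Vps8, a subunit of the endosomal CORVET tether, 4 and 1. Rin3, an activator of Rab5-family GTPases, had 3 and 3, Rin2 2 and 2, and Usp6nl, an inactivator of Rab5, 4 and 2. Dennd1b, an activator of Rab35, had 4 and 1, Dennd2c 3 and 1, and Rims2, a synaptic Rab3 effector, 4 and 2. These rates were not compared with those of the members by a test. The span of the 82 genes was not taken into account.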

How the data were processed

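ATAC-seq libraries of 3 cKO and 3 cWT samples, grouped by their titles, were analysed from 2 headerless peak lists. The peak score, signal, p-value and adjusted p-value of each peak are as the authors deposited them. The reading of the columns rests on their layout and values, and the signal has no stated scale. The columns called p-value and adjusted p-value here carry no such label in the lists. The tools named per the submitters' processing notes are HOMER 4.11, MACS2 2.2.7.1 and Bowtie2 2.4.4, with the build mm10; for the pooling of replicates and the choice of specific peaks, the method is not given in the sources. Depth is unknown, and a deeper set of libraries could lengthen a list.

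Peaks were assigned by midpoint to RefSeq coding genes (GRCm38.p6), up to 100 kb. Starts and sequences came from the RefSeq promoter table. Shares have exact (Clopper-Pearson) 95% intervals. The balance of each gene with at least 5 peaks was tested by a two-sided exact binomial test, adjusted over all genes. It was first run on simulated counts drawn from the same binomial model, which cannot show how clustered peaks affect it. Members, role groups, motifs and the wider pathway list were chosen with earlier results of these data known; the paralog sets were added after values were seen. Named genes were those with 3 or more peaks, a gene-end peak, peaks of both lists, 2 or more cWT-specific peaks or 1 of the 5 best-scored member peaks of a list, and pathway genes with 4 or more; further genes were named to account for each group. Python 3.11.15, numpy 2.4.6, pandas 2.3.3, scipy 1.17.1 and matplotlib 3.10.9 were used.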

Additional observations from a re-analysis of the deposited data

How the results depend on the processing

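The cKO share of member peaks, 76.0%, stayed within its counting interval under all alternatives but one. With p-values up to 0.5 it was 85.7% (12 against 2 peaks). That cut kept 12.4% of all assigned cKO-specific peaks (976) and 6.29% of the cWT-specific ones (196). The cKO share over all assigned peaks is thus also higher under it. With a 10 kb limit the members' cKO share was 67.4% (31 against 15). The 52 members with a peak became 33 with a 10 kb limit, 13 with p-values up to 0.5 and 3 among peaks named primary, since each of these keeps fewer peaks. It was 38 when all annotated genes competed and 45 without the Rab-interacting genes, an alternative chosen after seeing the data. For alternatives that change the peaks or their assignment, the share of all coding genes with a peak is not given here. Those counts cannot be set beside 27.9%. The gene-end share of both lists together, 8.65%, became 19.6% with a 10 kb limit, 28.6% with p-values up to 0.5 and 50.0% (2 of 4 peaks) among those named primary. With windows of 500 and 3000 bp it was 7.69% and 14.4%. Merging peaks within 500 bp left 77 and 25 member peaks. The number of genes past the balance test was 0 under every alternative run, including a minimum of 3 peaks (1169 genes, 14 of them members; the lowest member p was 0.0713, Tbc1d30, exact binomial test). No paired analysis was possible because the lists give no value for a single library, and no library could be left out.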
